A study of Mus musculus with 6 samples.

Results

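The insulin-like growth factor (IGF) family was followed in the cochlea of the mouse inner ear through 10 genes, taken from the table by their symbols: the ligands Igf1 and Igf2, the receptors Igf1r and Igf2r, and the binding protein genes Igfbp2, Igfbp3, Igfbp4, Igfbp5, Igfbp6 and Igfbp7. They are 10 of the 30462 genes in the deposited table, and each matched 1 row by its symbol. The series compared cochlear RNA of mice labelled NEU4 KO (3 libraries, replicates 2, 4 and 5) with that of mice labelled WT (3 libraries, replicates 3, 4 and 5) at postnatal day 7. The product of Neu4 is a sialidase, which cleaves terminal sialic acid from glycan chains. No allele, strain or number of animals per library was named in the labels, so p-values measure only the spread between these libraries, which may be technical. The family was chosen by its FPKM values in knockout against wild type, which were already known, so every difference between those groups given for its 10 genes is a description and supports nothing.

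IGF1 and IGF2 are secreted growth factors that act mainly through the tyrosine kinase receptor encoded by Igf1r, which feeds the PI3K-AKT and RAS-MAPK pathways. The receptor encoded by Igf2r, also the mannose 6-phosphate receptor of lysosomal enzyme sorting, takes up IGF2 and delivers it for degradation. Binding proteins hold the ligands outside the cell, extend their lifetime and control their access to the receptor, and proteases release the ligands again. In the cochlea, IGF1 is known for its part in the postnatal growth and survival of sensory and neuronal cells, and its loss impairs hearing in mice.

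Expression was measured as FPKM, the fragments counted on a gene divided by its exon length and by the size of the library, which allows levels to be compared between genes per length. The values correspond to library totals of 15170973 to 17192293 fragments. Neu4 was listed at 0.0518, 0.102 and 0.0853 FPKM in knockouts 2, 4 and 5 and at 0.0523, 0.1003 and 0.0810 FPKM in wild types 3, 4 and 5, which is 4 to 8 fragments per library. The groups overlapped, so Neu4 RNA did not check the labels, and knockout below means the libraries labelled so. By Xist and Ddx3y, knockout held 1 male and 2 female libraries and wild type 2 male and 1 female. Wild type 5, the female one, had Xist at 9.23 FPKM, below the 24.6 and 28.2 FPKM of the female knockouts 4 and 5. Why it was lower was not tested. Genes that reached 1 FPKM in 3 or more libraries, 14072 in all, were tested on log2(FPKM + 1) with limma, and all 10 family members were among them. A log2 difference below is knockout minus wild type on that scale.

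Of the markers of the cochlea, 8 of 10 for hair cells, 8 of 10 for supporting cells and 10 of 10 for spiral ganglion neurons were tested. The hair cell genes Slc26a5 (0 to 0.215 FPKM) and Tmc1 (0.146 to 0.312) were below the level tested. So were the supporting cell genes Hes5 (0 to 0.321) and Prox1 (0.608 to 0.911). Markers of surrounding tissue were also present. The 10 supporting cell markers summed to 288 to 343 FPKM and the 10 spiral ganglion neuron markers to 126 to 196 over the 6 libraries, with overlapping groups. In 8 of the 16 marker lists the sums of knockout and wild type did not overlap. A sum follows the most abundant genes of its list. The sums of the 10 connective tissue fibroblast markers overlapped, yet 9 were lower in knockout and 1 higher (median log2 difference -0.41). Of these, 3 were lower without overlap. Of the 8 supporting cell markers tested, 4 were higher and 4 lower in knockout, and 4 higher and 1 lower did not overlap. Beside these counts, 15.2% of all genes tested were higher and 9.54% lower in knockout without overlap. The 10 hair cell markers summed to 34.8 to 38.2 FPKM in knockout against 30.9 to 33.1 in wild type, and all 8 that were tested were higher in knockout without passing the test. The 9 stria marginal cell markers summed to 95.04 to 102 FPKM in knockout against 82.9 to 85.3 in wild type. Of the 8 tested, 7 were higher and 1 lower in knockout, and Esrrb passed as higher (adjusted p = 0.0456, limma). The 10 smooth muscle and pericyte markers summed to 144 to 169 FPKM in knockout against 195 to 231 in wild type. The 9 endothelial markers summed to 130 to 141 against 143 to 156. The 9 middle ear epithelium markers summed to 96.2 to 178 against 469 to 819.5, with Bpifa1 alone at 0.0777 to 93.3 against 336 to 608. Of the tested smooth muscle and pericyte markers 7 of 9 were lower in knockout, and Actg2 passed as lower (adjusted p = 0.0425, limma). Over all genes tested 0.334% passed. Of the endothelial markers 6 of 9 were lower and of the middle ear markers 5 of 7, the others being higher. The 9 spiral ligament markers summed to 1253 to 1257 FPKM in knockout against 1041 to 1156 in wild type. The 10 osteoblast markers summed to 5306 to 6545 against 4877 to 5134. All 8 spiral ligament and all 10 osteoblast markers that were tested were higher in knockout, and 0 of them passed. The 8 adipocyte markers summed to 5.85 to 25.8 FPKM in knockout against 34.8 to 58.8 in wild type, with all 6 that were tested lower (median log2 difference -1.29). The sums of the 10 skeletal muscle markers overlapped, at 30.8 to 232 FPKM in knockout and 130 to 578 in wild type. All 8 that were tested were lower in knockout. Knockout 4 had the lowest and wild type 5 the highest of these sums, and 1 alternative below leaves out both. In each of these lists 0 markers were at 0 in every library. In bulk tissue, fewer cells of a type and less RNA per cell cannot be told apart, and the part of these shifts in the values below was not tested.

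The binding proteins made up most of the family's RNA. Igfbp5 was the highest, with a mean of 427 FPKM over the 6 libraries (range 397 to 467), above 99.7% of the genes tested. Igfbp4 (mean 254, range 222 to 290.3) and Igfbp2 (mean 233, range 222 to 252) followed, and these neighbours overlapped, Igfbp4 being the higher in 4 of 6 libraries. Igfbp7 stood at a mean of 103 FPKM (range 88.0 to 114). Igf2 (mean 54.2), Igf2r (40.4), Igfbp3 (23.7) and Igf1 (17.6) came next, each with a range that did not reach that of its neighbour. Igfbp6 (8.86, range 6.98 to 10.4) and Igf1r (6.74, range 5.81 to 7.80) were the lowest and their ranges overlapped, although Igfbp6 was above Igf1r in all 6 libraries. On GRCm38 the ligand genes lie at chr10:87858265-87937042 (Igf1, plus strand) and chr7:142650766-142666816 (Igf2, minus strand), and the receptor genes at chr7:67952827-68233668 (Igf1r, plus) and chr17:12682406-12769664 (Igf2r, minus). The binding protein genes lie at chr1:72824503-72852474 (Igfbp2, plus), chr1:72857932-72874884 (Igfbp5, minus), chr11:7206086-7213923 (Igfbp3, minus), chr11:99041244-99054392 (Igfbp4, plus), chr15:102144362-102149511 (Igfbp6, plus) and chr5:77349240-77408041 (Igfbp7, minus). FPKM counted the exons of these spans. Igfbp1, a liver binding protein that lies next to Igfbp3, was close to absent, with 0 to 2 fragments per library.

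The 2 ligands differed in level. Igf2, the ligand known for fetal growth and for expression from the paternal allele, was at 46.4, 51.6 and 63.4 FPKM in knockouts 2, 4 and 5 and at 51.7, 53.3 and 58.7 FPKM in wild types 3, 4 and 5. Knockout 2 was the lowest and knockout 5 the highest of all 6 libraries, so the knockout values enclosed those of wild type. The group means were 53.8 ± 8.74 and 54.6 ± 3.64 FPKM (SD, n = 3 each), a log2 difference of -0.03 (SE 0.11). Its direction turned without knockout 2 (0.07) or without wild type 5 (0.02), and leaving out knockout 4 or 5 gave -0.0065 or -0.15, and wild type 3 or 4 -0.067 or -0.046.

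Igf1, the ligand that mediates much of the growth hormone response, was at 14.4, 15.2 and 18.99 FPKM in knockouts 2, 4 and 5 and at 18.1, 18.8 and 20.1 FPKM in wild types 3, 4 and 5. Knockouts 2 and 4 lay below every wild type library and knockout 5 lay among them. The means were 16.2 ± 2.45 and 19.02 ± 1.02 FPKM (SD, n = 3 each), a log2 difference of -0.23 (SE 0.098). Without knockout 2 this difference was -0.15, and without knockout 5 it was -0.34.

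Taken as a ratio within each library, Igf2 exceeded Igf1 by 3.21, 3.40 and 3.34 times in knockouts 2, 4 and 5 and by 2.85, 2.83 and 2.92 times in wild types 3, 4 and 5. The ratio thus spread less between libraries of a group than either ligand, at 3.32 ± 0.0965 in knockout and 2.87 ± 0.0422 in wild type (SD, n = 3 each), and the groups did not overlap. How often the ratios of other gene pairs lie apart in the same way was not tested. Igf1 and Igf2 are each overlapped by an antisense gene, Igf1os at 0.0759 to 0.345 FPKM and Igf2os at 1.71 to 2.48 FPKM. No label says whether fragments were counted by strand. Igf2 also holds Mir483, listed at 32.1 to 53.3 FPKM, whose fragments can come from Igf2 transcripts.

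Of the receptors, the clearance receptor was the more abundant. Igf2r, expressed from the maternal allele in most mouse tissues, was at 39.1, 40.3 and 41.2 FPKM in knockouts 2, 4 and 5 and at 42.8, 41.0 and 38.1 FPKM in wild types 3, 4 and 5. The wild type values enclosed all knockout values. The means were 40.2 ± 1.06 and 40.7 ± 2.39 FPKM (SD, n = 3 each), with a log2 difference of -0.02 (SE 0.052) that turned to 0.0034 without knockout 2, to 0.02 without wild type 3 and to 0.01 when values were rescaled to TPM. Leaving out knockout 5 gave -0.034, and wild type 4 or 5 gave -0.0086 or -0.061. Airn, the imprinted antisense RNA of this locus, was at 2.26 to 3.59 FPKM.

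Igf1r was at 6.74, 6.79 and 7.80 FPKM in knockouts 2, 4 and 5 and at 6.98, 6.29 and 5.81 FPKM in wild types 3, 4 and 5. Wild type 3 lay above knockouts 2 and 4, so the groups overlapped, and the log2 difference was 0.14 (SE 0.081). It was 0.080 without knockout 5 and 0.085 without wild type 5. The ratio of Igf2r to Igf1r was 5.79, 5.93 and 5.28 for knockouts 2, 4 and 5 against 6.13, 6.52 and 6.55 for wild types 3, 4 and 5, and did not overlap between the groups. Insr, the related insulin receptor, was at 2.71 to 3.58 FPKM, so that Igf1r exceeded it by 1.91 to 2.30 times in each library, with overlapping groups.

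**Figure D1:**
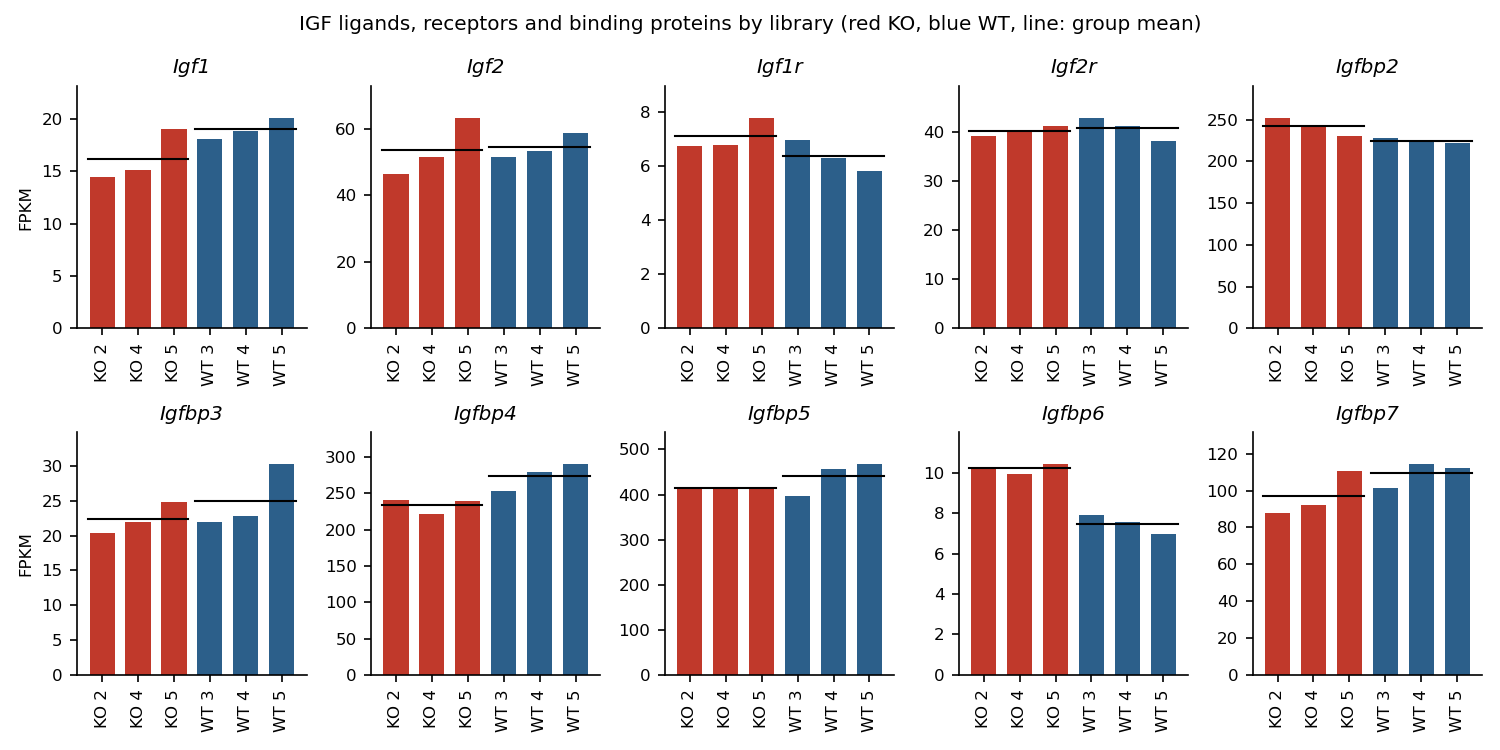
FPKM of each family member (vertical axis, 1 panel per gene, starting at 0) in the 6 libraries (horizontal axis, KO red, WT blue), with black lines at the group means of 3 libraries. Igfbp6 has all 3 knockout libraries at 9.94 to 10.4 FPKM and all wild type libraries at 6.98 to 7.90, while for Igf2 and Igf2r the groups enclose one another.

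Of the 10 members, 3 had knockout values that did not overlap those of wild type, Igfbp6 and Igfbp2 being higher in knockout and Igfbp4 lower. Over all genes tested the groups did not overlap in 24.8%, higher in knockout in 15.2% and lower in 9.54%. In the fit across all genes 1 of the 10, Igfbp6, passed an adjusted p of 0.05 (limma, Benjamini-Hochberg), where 0.334% of all genes did (0.128% higher and 0.206% lower in knockout). Both counts come from the contrast by which the genes were chosen, and nothing is read from them. The median log2 difference of the 10 genes was -0.06, beside 0.02 over all genes tested, with 3 members higher and 7 lower in knockout.

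Igfbp6 encodes a binding protein with a known preference for IGF2 over IGF1. It was at 10.3, 9.94 and 10.4 FPKM in knockouts 2, 4 and 5 and at 7.90, 7.58 and 6.98 FPKM in wild types 3, 4 and 5. All knockout libraries lay above all wild type libraries. The means were 10.2 ± 0.259 and 7.49 ± 0.469 FPKM (SD, n = 3 each), 36.6% higher in knockout, and the log2 difference was 0.40 (SE 0.057, adjusted p = 0.0495, limma). It rests on few fragments, with knockouts 2, 4 and 5 holding 191, 187 and 176 and wild types 3, 4 and 5 holding 145, 145 and 124. Summed over the libraries, the fragment rate was 1.36 times that of wild type, with a 95% exact interval of 1.20 to 1.55 that covers counting error only. The same interval was 0.822 to 0.873 for Igf1 and 0.851 to 0.914 for Igfbp7, whose groups overlapped, and 0.959 to 1.004 for Igf2. It leaves out the spread between libraries, so nothing about the groups is read from it.

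The spread of Igfbp6 between libraries was smaller than its counting error. Its SD within groups was 0.062 on the log2 scale, whereas fragment counting alone gives 0.103 at this depth, and it was the only 1 of the 10 members below its counting error. The call ended when any 1 library was left out. Leaving out knockout 2, 4 or 5 gave an adjusted p of 0.18, 0.165 or 0.0787, and leaving out wild type 3, 4 or 5 gave 0.126, 0.163 or 0.126 (limma). With voom on the recovered fragments, which weighs counting error, the log2 difference was 0.45 (SE 0.115, adjusted p = 0.0646). Over all alternatives the difference lay between 0.36 and 0.46 and the adjusted p between 0.0258 and 0.237 (limma).

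**Figure D2:**
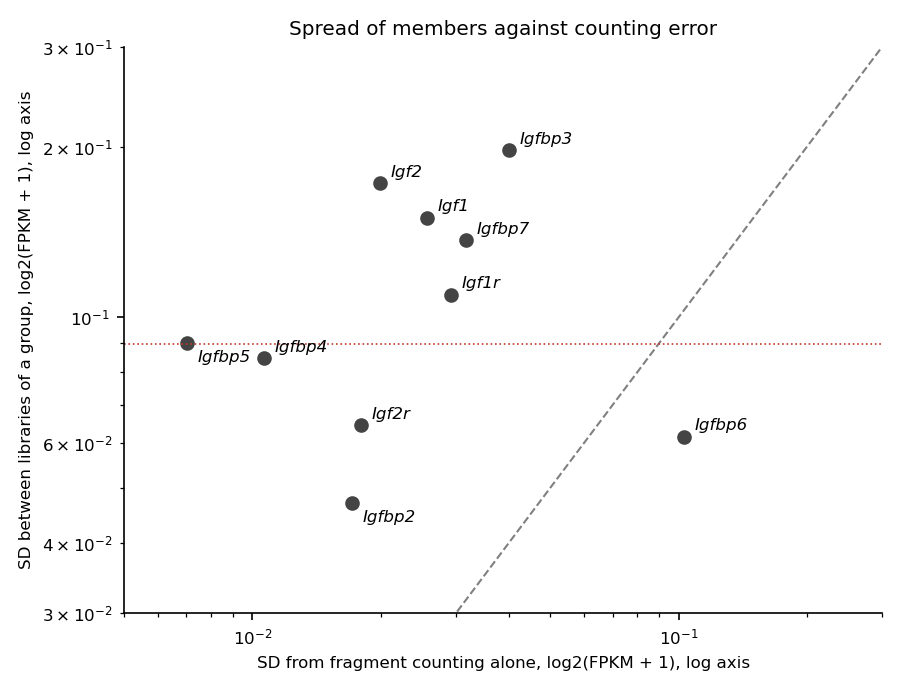
SD between libraries of a group on log2(FPKM + 1) (vertical, log axis) against the SD that counting of fragments alone gives (horizontal, log axis), 1 point per family member, with the dashed line at equality and the dotted line at the median of 0.090 of all genes tested. Igfbp6 lies below the dashed line, at 0.062 against 0.103, and the other members lie above it.

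Igfbp4, whose product is cleaved by the protease PAPP-A and otherwise holds IGFs away from the receptor, was at 240.4, 222 and 239.8 FPKM in knockouts 2, 4 and 5 and at 253, 279.8 and 290.3 FPKM in wild types 3, 4 and 5. Every knockout library lay below every wild type library. The means were 234 ± 10.4 and 274 ± 19.002 FPKM (SD, n = 3 each), a difference of -14.7%, with a log2 difference of -0.23 (SE 0.063) that did not pass over all genes and was -0.15 without knockout 4 and wild type 5. With 16063 to 21244 fragments per library, counting error was small beside the spread between libraries (0.011 against 0.085 on the log2 scale). The smooth muscle and pericyte, endothelial, middle ear epithelium and adipocyte sums given above were also lower in knockout, and their part in this value was not tested.

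Igfbp2 and Igfbp5 are neighbours on chromosome 1 with their 3′ ends facing each other across 5457 bp, an arrangement shared by Igfbp1 and Igfbp3 on chromosome 11 across 3539 bp. Igfbp2 was at 252, 242 and 231 FPKM in knockouts 2, 4 and 5 and at 228, 225 and 222 FPKM in wild types 3, 4 and 5. The groups did not overlap, but knockout 5 and wild type 3 lay close together. The log2 difference was 0.10 (SE 0.046), from means of 242 ± 10.7 and 225 ± 2.90 FPKM (SD, n = 3 each). Igfbp5, whose product binds the extracellular matrix, was at 414, 413 and 417 FPKM in knockouts 2, 4 and 5 and at 397, 456 and 467 FPKM in wild types 3, 4 and 5. Wild type 3 lay below and wild types 4 and 5 above the 3 knockout libraries, which spanned only 413 to 417. Its log2 difference was -0.08 (SE 0.068), and leaving out wild type 3, 4 or 5 gave -0.15, -0.054 or -0.037. Neu4 lies on the same chromosome, 21.1 Mb beyond Igfbp5.

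Igfbp3 and Igfbp7 overlapped between the groups. Igfbp3, the main carrier of IGFs in serum together with the subunit encoded by Igfals, was at 20.4, 22.0 and 24.8 FPKM in knockouts 2, 4 and 5 and at 22.0, 22.8 and 30.3 FPKM in wild types 3, 4 and 5. Wild type 5 stood above the other libraries: the log2 difference of -0.14 (SE 0.13) was -0.0039 without it and 0.0062 without knockout 4 and wild type 5. Leaving out knockout 2 or 5 gave -0.080 or -0.22, and wild type 3 gave -0.23. With sex as a covariate the log2 difference of Igfbp3 was -0.24 (SE 0.074, adjusted p = 0.188, limma). Wild type 5 is also the only female library of wild type, so this fit leans on the same library. Igfbp7, which binds IGFs weakly and is known from vessel walls, was at 88.0, 92.5 and 110.5 FPKM in knockouts 2, 4 and 5 and at 102, 114 and 112 FPKM in wild types 3, 4 and 5. Knockout 5 lay among the wild type libraries, and the log2 difference of -0.18 (SE 0.090) was -0.11 without knockout 2 and -0.27 without knockout 5. Igfbp7 is overlapped on the other strand by Polr2b, a subunit gene of RNA polymerase II at 12.7 to 15.2 FPKM.

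Knockout 5 was the highest of the 3 knockout libraries for 8 of the 10 genes, where it was the highest for 42.7% of all genes tested. Its lead over the next knockout library was small for Igfbp5 (417 against 414 FPKM), Igfbp6 (10.4 against 10.3) and Igf2r (41.2 against 40.3). Igf1, Igf2, Igfbp3 and Igfbp7 had the widest spreads within groups, with SDs of 0.150, 0.173, 0.198 and 0.137 on the log2 scale against a median of 0.090 over all genes. For these genes knockout 2 was the lowest of the 6 libraries. Igfbp2 had the narrowest spread (0.047), at percentile 12.9 of the genes tested.

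As a group, the 6 binding protein genes summed to 1026, 1002 and 1033 FPKM in knockouts 2, 4 and 5 and to 1009.7, 1105 and 1129 FPKM in wild types 3, 4 and 5, and overlapped between the groups. Igfbp5 made up 39.3% to 41.4% of the sum over the 6 libraries, with a mean of 40.7% in both groups (n = 3 each). Igfbp4 made up 22.2% to 23.4% in knockout and 25.1% to 25.7% in wild type, and Igfbp6 0.991% to 1.01% and 0.618% to 0.782%. The binding protein sum exceeded the summed ligands by 12.5 to 16.9 times over the libraries, at 14.8 ± 2.18 in knockout and 14.7 ± 0.542 in wild type.

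**Figure D3:**
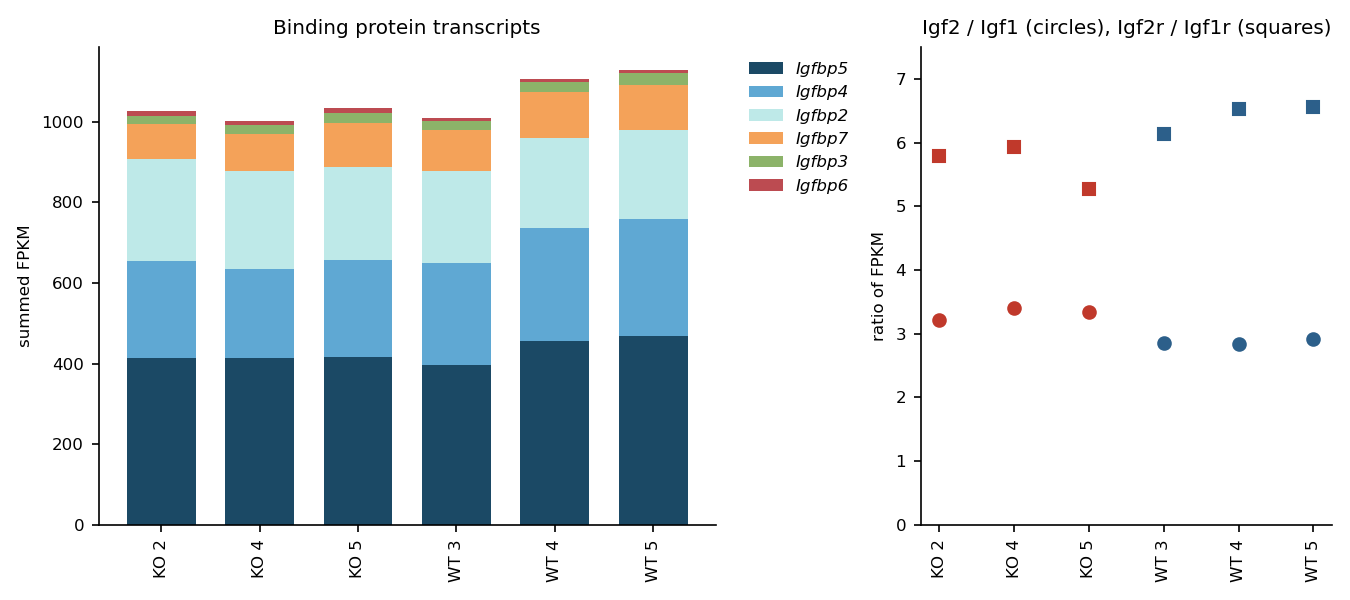
Left, FPKM of the 6 binding protein genes stacked by library (vertical axis from 0), summing to 1002 to 1129. Right, the ratios of Igf2 to Igf1 (circles) and Igf2r to Igf1r (squares) in each library (KO red, WT blue). Knockout lies at 3.21 to 3.40 against 2.83 to 2.92 for the ligands and at 5.28 to 5.93 against 6.13 to 6.55 for the receptors.

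The promoters of members whose knockout and wild type values lay apart in opposite directions, Igfbp6 and Igfbp4, are shown with that of Igf1r, the lowest member. The sequences are from RefSeq (GRCm38.p6), run from 250 bases before the start of the gene to 50 after it, and are written 5′ to 3′ on the strand of the gene. Capitals mark matches on either strand to the TATA motif TATAAA, the GC box GGGCGG, the CCAAT box CCAAT and the FoxO motif TGTTTAC, none of which overlap in these 3 windows.
Igfbp6 promoter (chr15:102143936-102144235, plus strand): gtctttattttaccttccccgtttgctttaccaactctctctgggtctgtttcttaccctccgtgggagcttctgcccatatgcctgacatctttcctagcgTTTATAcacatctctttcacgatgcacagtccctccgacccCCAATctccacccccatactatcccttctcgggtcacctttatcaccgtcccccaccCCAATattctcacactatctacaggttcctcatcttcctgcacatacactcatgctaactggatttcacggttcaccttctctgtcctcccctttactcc
Igfbp4 promoter (chr11:99040994-99041293, plus strand): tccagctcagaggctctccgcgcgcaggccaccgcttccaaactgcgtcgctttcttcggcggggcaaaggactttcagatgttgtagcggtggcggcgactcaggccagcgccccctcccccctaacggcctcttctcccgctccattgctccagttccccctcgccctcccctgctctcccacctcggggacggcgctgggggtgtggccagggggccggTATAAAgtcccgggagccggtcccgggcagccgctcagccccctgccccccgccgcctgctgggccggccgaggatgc
Igf1r promoter (chr7:67952007-67952306, plus strand): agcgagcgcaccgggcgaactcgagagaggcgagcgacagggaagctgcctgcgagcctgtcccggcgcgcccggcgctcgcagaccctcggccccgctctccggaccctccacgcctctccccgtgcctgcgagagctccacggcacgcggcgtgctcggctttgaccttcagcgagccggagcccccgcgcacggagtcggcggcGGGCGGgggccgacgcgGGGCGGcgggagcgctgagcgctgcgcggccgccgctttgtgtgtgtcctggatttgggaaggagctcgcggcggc
The Igfbp4 window holds TATAAA with its first base 28 bases before the start, and 13.6% of all 32851 windows hold that motif on either strand. The Igfbp6 window holds the same motif on the opposite strand, 148 bases before the start, and CCAAT at 107 and 50 bases, a motif found in 37.4% of windows. The Igf1r window holds GC boxes 43 and 26 bases before the start, which 35.7% of windows have, and 48 CpG dinucleotides, more than 98.8% of windows, where the Igfbp4 window holds 27 and the Igfbp6 window 8. All 10 members had at least 1 window, 14 in all, of which 6 held a GC box and 0 held the FoxO motif (3.65% of all windows). In the annotation of the files Igfbp6 starts at 102144362 and Igf1r at 67952827, both downstream of their RefSeq windows, while the start of Igfbp4 lies within its window. A match describes these letters and is no evidence of binding.

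The other genes of the pathway were taken from 7 lists of 119 genes, of which 104 were tested. With limma 0 of the 104 passed over all genes, against 0.334% of all genes tested. At an unadjusted p under 0.05 there were 23 (22.1%, against 17.6% of all genes), and voom on the recovered fragments called 4 of 102 (3.92%, against 2.83% of all genes). Of the 104, 70 were higher and 34 lower in knockout (67.3% higher, against 56.9% of all genes), and their median log2 difference was 0.07, beside 0.02 over all genes. The groups did not overlap for 28 higher and 10 lower, which is 26.9% and 9.62% of the 104 against 15.2% and 9.54% of all genes. The lists too were chosen with earlier results of these data known, so these shares are a description.

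Among other ligands, receptors and carriers, 0 of 8 tested genes passed in either direction (median log2 difference 0.14). Sort1, the sorting receptor sortilin, had 26.9 ± 0.702 FPKM in knockout and 24.4 ± 1.85 in wild type, and Socs2, a suppressor of growth hormone signalling, had 10.04 ± 0.908 and 8.68 ± 0.1999 (SD, n = 3 each). The insulin gene Ins2 was at 0 to 0.0502 FPKM, and Ins1 was not analysed here. Of the binding protein proteases and their inhibitors 0 of 11 passed (median 0.05). Mmp9, the gelatinase of osteoclasts and neutrophils, was the most abundant at 1162 ± 96.5 and 1121 ± 40.5 FPKM, and Mmp2 had 319.7 ± 11.2 and 315 ± 9.88. Pappa, the protease of Igfbp4, was below the level tested, at 0.707 to 0.827 FPKM in knockout and 0.516 to 0.643 in wild type.

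Of the secreted proteins related to binding proteins, 0 of 8 passed (median 0.06), with Kazald1 at 107.5 ± 6.77 and 100.8 ± 1.78 FPKM and the matricellular gene Ccn1 at 77.2 ± 10.4 and 85.6 ± 3.88. Among receptor adaptors and the PI3K-AKT-mTOR pathway 0 of 34 passed (median 0.06). The kinase gene Akt1 had 83.0 ± 1.83 FPKM in knockout and 92.4 ± 1.25 in wild type (log2 difference -0.15, SE 0.037), and the imprinted adaptor gene Grb10 had 55.3 ± 3.52 and 53.2 ± 1.35. In the RAS-MAPK list 0 of 19 passed (median 0.08), with the kinase gene Mapk3 at 68.01 ± 1.06 and 69.5 ± 0.664 FPKM and the adaptor gene Grb2 at 39.7 ± 2.19 and 41.2 ± 1.36.

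FoxO factors, which AKT keeps out of the nucleus, and their targets had 0 of 14 past the threshold (median 0.06). Txnip, an inhibitor of thioredoxin, had 105.9 ± 12.1 and 109 ± 4.10 FPKM, and the transcription regulator Cited2 had 45.5 ± 3.09 and 38.3 ± 2.09. Of the imprinted growth genes 0 of 10 passed (median 0.01). H19, the non-coding RNA transcribed from the maternal allele next to Igf2, was at 1311 ± 190.0 FPKM in knockout and 1426 ± 162 in wild type, and the cell cycle inhibitor gene Cdkn1c at 78.0 ± 1.35 and 88.1 ± 8.72 (SD, n = 3 each).

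Among the genes called by some alternative were Htra3, Ccn4 and Gsk3b, chosen here after their values were seen. Htra3, a serine protease that cleaves binding proteins, had 18.6 ± 0.464 FPKM in knockout and 22.4 ± 0.675 in wild type (n = 3 each, adjusted p = 0.0735, limma, and 0.025 to 0.323 over the alternatives). Ccn4 had 47.03 ± 4.59 and 33.9 ± 3.05 FPKM (adjusted p = 0.0924, limma, and 0.0164 to 0.323). Gsk3b, the kinase held inactive by AKT, had 11.5 ± 0.633 and 9.62 ± 0.384 FPKM (adjusted p = 0.128, limma, and 0.042 to 0.374).

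**Figure D4:**
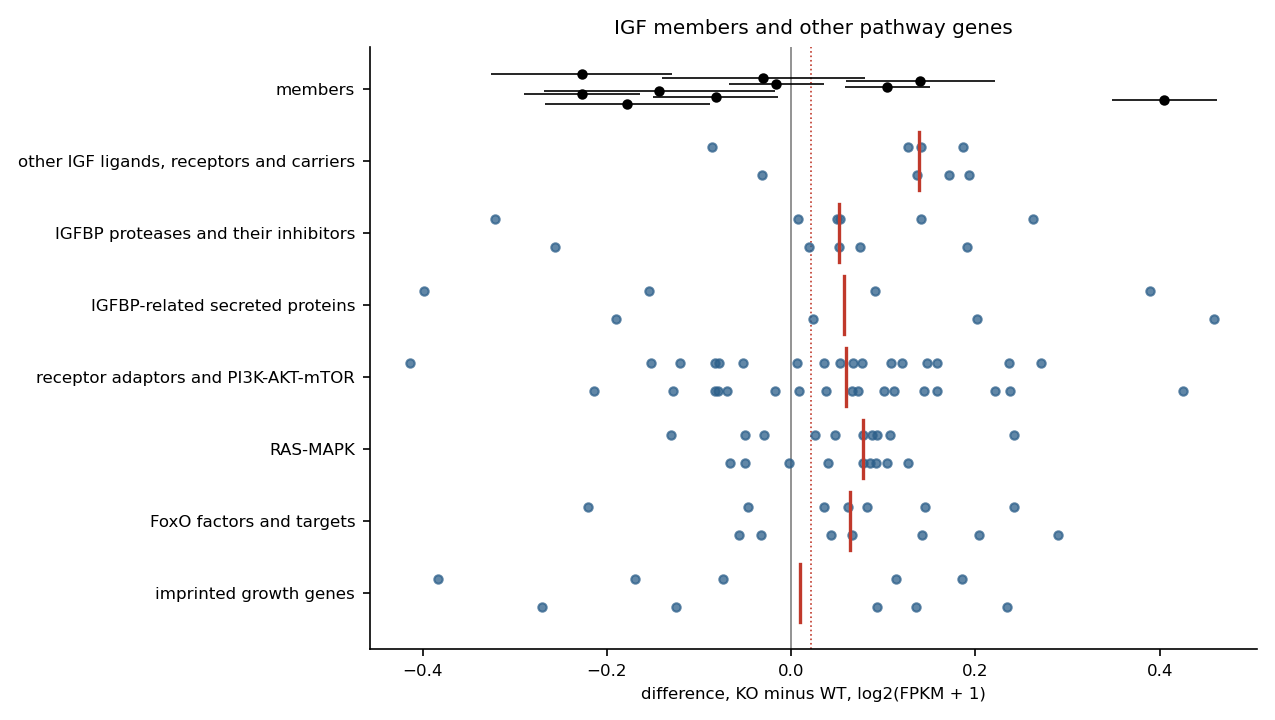
Difference between knockout and wild type on log2(FPKM + 1) (horizontal axis) for the 10 family members (black, bars are 1 SE of the fit on 6 libraries) and for the 104 tested genes of 7 pathway lists (blue points, red lines are list medians of 0.01 to 0.14), with the dotted line at the median of 0.02 of all genes. Igfbp6 lies at 0.40, apart from the other members at -0.23 to 0.14.

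For each member, the protein-coding genes with a mean of at least 5 FPKM whose level ran most like it over the 6 libraries were listed as a description, from 7606 candidates. Igfbp6 ran closest to Atp2b1 (Pearson r = 0.998), Tmod3 (0.996) and Setd7 (0.996), and 371 candidates had an r above 0.9. Igf1 ran closest to Tsr2 (0.995), Igdcc4 (0.994) and Col14a1 (0.991), Igf2 to Foxd1 (0.997), and Igfbp3 to E2f1 (0.998). For the receptors the closest genes were Ice1 for Igf1r (0.989) and Rabep2 for Igf2r (0.9895). For the other binding proteins they were Pak1 for Igfbp2 (0.993), Myorg for Igfbp4 (0.993), Pigx for Igfbp5 (0.988) and Bod1 for Igfbp7 (0.988). These correlations share the same 6 libraries, their genotype groups and their tissue makeup, and with 6 points high values are common.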

How the data were processed

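RNA of 6 mouse cochleae samples was sequenced. The authors deposited 1 table of FPKM values with gene identifier, symbol, biotype and position. The build, per the submitters' processing notes, is GRCm38, while the aligner, counter and strand setting were not stated there or in the labels. Multiplied by the exon length of GENCODE M21, 98.3% of values above 0 came out as whole multiples of 1 unit in each library (tolerance 0.01 fragment plus a relative 1e-06), which gave fragments per gene and library totals. Intervals from fragments cover counting error only.

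Genes reaching FPKM 1 in 3 or more libraries were fitted on log2(FPKM + 1) with limma 3.58.1 (lmFit, eBayes with a trend, R 4.3.3), two-sided, with Benjamini-Hochberg adjustment over all genes and a threshold of 0.05. On this scale the change of low genes is understated. On simulated data with independent noise, the fit recovered 77.6% of 1.5-fold and 93% of 2-fold changes, with 5.33% false calls. Smaller changes and effects shared by the genes of a library were not simulated. Alternatives were pseudocounts of 0.1 and 0.5, filters, scaling, eBayes settings, library weights, sex, a replicate block and leaving out libraries. Voom on recovered fragments, protein-coding genes only and leaving out knockout 4 with wild type 5 were added after seeing the data.

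The members and lists were chosen with earlier results of these data known. Named were all members, from each pathway list up to 4 called genes or else the 2 with the highest mean, and per member the 3 most alike genes, not all printed. Protein sequences were not used here, and 1 gene of the pathway lists is counted but not reported here.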

Additional observations from a re-analysis of the deposited data

How the results depend on the processing

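The count of family members passing was 1 (Igfbp6). It was 0 with a pseudocount of 0.1, no filter on low values, eBayes without a trend, median-ratio scaling, rescaling to TPM, sex as a covariate, voom on the recovered fragments, or without knockout 4 and wild type 5, and 0 to 0 when any 1 library was left out. It stayed at 1 under the other alternatives without a block. With the replicate number as a replicate block it was 0. Only numbers 4 and 5 occur in both groups, so knockout 2 and wild type 3 did not enter the difference in this fit. The deviations from the group means correlated at 0.141 for number 4 and 0.150 for number 5, and nothing else pairs these libraries. The count of pathway genes passing was 0, and 2 of 76 with genes of FPKM 5 or more (1.27% of all genes passing), 2 of 104 with library weights (0.739% of all), 1 of 104 with sex as a covariate (0.171% of all), 4 of 102 with voom (2.83% of all), 0 to 0 when 1 library was left out and 0 with the replicate block. The cause of these changes was not tested.

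With the replicate block the log2 differences of Igf1r and Igfbp5 moved from 0.14 to 0.23 and from -0.08 to -0.15. The difference in that fit comes from knockouts 4 and 5 against wild types 4 and 5 only, without knockout 2 and wild type 3. Directions held in all 20 alternatives for Igf1, Igf1r, Igfbp2, Igfbp4, Igfbp5, Igfbp6 and Igfbp7. The log2 difference of Igf2 (-0.03) turned to 0.032 with the replicate block, to 0.046 without knockout 4 and wild type 5, and lay between -0.15 and 0.069 over single libraries left out. That of Igf2r turned to 0.041 with the replicate block and 0.012 on TPM, and lay between -0.061 and 0.021 over single libraries left out (0.0034 without knockout 2, 0.021 without wild type 3). That of Igfbp3 turned to 0.0062 without knockout 4 and wild type 5. Mmp2 (0.02) turned to -0.0038 with median-ratio scaling, -0.0034 with sex as a covariate, and lay between -0.0061 (without wild type 4) and 0.045 over single libraries left out (-0.0055 without knockout 5). Grb2 (-0.05) turned to 0.010 without knockout 4 and wild type 5, and Txnip (-0.05) to 0.059 with the replicate block and to 0.030 without knockout 2, in a range of -0.13 to 0.030. The cause was not tested. Depth limits Igfbp6, with 124 to 191 fragments a library, more than the other members, with at least 1062.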
